A study of Mus musculus with 6 samples.

Results

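The genes described here are 10 members of the fibroblast growth factor (FGF) and hepatocyte growth factor (HGF) signalling routes, namely the ligands Fgf1, Fgf2, Fgf7 and Fgf18, the receptors Fgfr1, Fgfr2, Fgfr3 and Fgfr4, the ligand Hgf and its receptor Met. They were picked by name, as routes through which vessels can be stimulated when VEGF receptors are blocked, and each matched 1 of the 48440 gene lines of the count table. All 10 had reads in every sample, and 9 of them passed the filter on low counts and were tested, with Fgfr4 as the member left out by the filter.

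RNA was sequenced from the subcutaneous mouse tissue that had grown around bone marrow stromal cell engineered cartilage (BEC), a construct made of rabbit cells on a PLGA scaffold and wrapped in an electrospun membrane of polycaprolactone (PCL) and collagen. The hosts were male BALB/c nude mice, which lack mature T cells, and all samples were taken 12 weeks after implantation. The 0%-Axitinib group (3 samples, called untreated or ctrl in the labels) had a membrane without drug, and the 3%-Axitinib group (3 samples) had a membrane loaded with 3% of axitinib, an inhibitor of the VEGF receptor tyrosine kinases, so both groups carried the membrane and the rabbit construct. A pair of constructs of the same group was placed in each mouse and the mouse is not named in the labels. Samples of a group may therefore share a host, and the tests then measure only the spread between these samples. The counts do not show whether a read came from a mouse or a rabbit transcript.

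FGFs bind heparan sulfate chains and receptor tyrosine kinases together, and the activated receptor passes its signal through the adaptor FRS2 to the RAS-ERK cascade, which also switches on its own inhibitors of the Sprouty and DUSP families. HGF is secreted by mesenchymal cells as an inactive precursor, is cut by serine proteases and then activates MET on epithelial, endothelial and some myeloid cells. FGF2 and HGF are classical stimulators of endothelial growth, and FGF18 and FGFR3 are best known from the control of cartilage growth.

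The depth was 17761968, 16716411 and 18005908 reads on genes in 0%-Axitinib replicates 1, 2 and 3, and 9225518, 11686084 and 18403795 reads in 3%-Axitinib replicates 1, 2 and 3. Reads that mapped nowhere made up 48.4% of 3%-Axitinib replicate 1 and 29.2% of 3%-Axitinib replicate 2, against 16.8% of 3%-Axitinib replicate 3 and between 3.84% and 14.9% of the 0%-Axitinib samples. Levels are counts scaled to library size (CPM) after TMM scaling, and a count of 3, used as the limit of detection, equalled between 0.157 and 0.330 CPM depending on the sample. In rank correlation of counts 0%-Axitinib replicate 3 stood apart from replicates 1 and 2 of its group (Spearman 0.891 and 0.893, against 0.978 between those 2), and the 3%-Axitinib samples correlated at 0.945 to 0.978. The share of unmapped reads moved with the group, and its part in the results below was not tested.

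Across the 3%-Axitinib and 0%-Axitinib groups, Hgf and Met fell, Fgf1 rose, and the other 6 tested members did not meet a criterion with the limits given by the study, a 1.5-fold or larger change and a p no larger than 0.05, here the unadjusted p of edgeR. This criterion took 2 of 9 tested members as lower, beside 11.7% of all 15257 tested genes, and 1 of 9 as higher, beside 9.54% of all tested genes. In either direction it took 3 of 9 members beside 21.2% of all genes. With total counts in place of TMM the genes taken by the criterion divided into 989 higher and 2448 lower, against 1456 higher and 1785 lower with TMM. The member calls were the same with both scalings. Omission of 0%-Axitinib replicate 3 raised the higher genes to 2274.

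In edgeR's quasi-likelihood test, the unadjusted p was 0.05 or lower for 3 of the 9 members, beside 3585 of all 15257 tested genes. Benjamini-Hochberg adjustment across all tested genes left 0 of the 9 members at 0.05 or lower, beside 0.00655% of all genes (1 gene). The same count was 0 members with limma-voom and 2 members (Hgf and Met) with DESeq2's Wald test, which passed 1960 genes. Omission of 0%-Axitinib replicate 3 let 1252 genes pass, among them Hgf as the only member (adjusted p = 0.0394, edgeR), and omission of 3%-Axitinib replicate 2 let 58 pass. The groups did not overlap for 2 of 9 members with lower values under axitinib (16.6% of all genes) and for 3 of 9 with higher values (14.7% of all genes). The median log2 fold change of the 9 members was 0.81, against -0.03 for all tested genes.

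**Figure D1:**
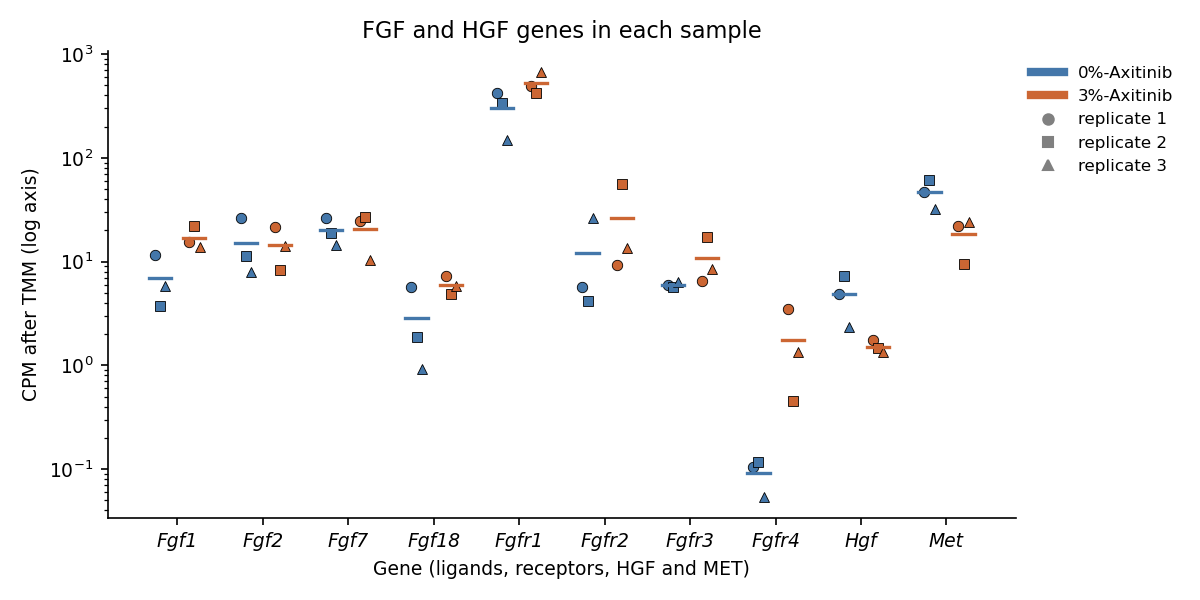
CPM of the 10 genes on a log axis, with 1 point per sample (the shape gives the replicate number), a horizontal line at the group mean, blue for 0%-Axitinib and orange for 3%-Axitinib. The Hgf and Met points of the 3%-Axitinib samples lie below all 0%-Axitinib points, the Fgf1 points lie above them, and Fgfr1 is the most abundant of the 10 genes at 149 to 672 CPM.

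Among the FGF ligands, Fgf1, the ligand that binds all FGF receptors, was at 11.5, 3.73 and 5.76 CPM in 0%-Axitinib replicates 1, 2 and 3 and at 15.4, 22.0 and 13.8 CPM in 3%-Axitinib replicates 1, 2 and 3. All 3 axitinib samples were above all 3 samples without drug, and 0%-Axitinib replicate 1 was the nearest to them. The mean was 6.99 ± 4.02 CPM (SD, n = 3) without drug and 17.04 ± 4.33 CPM (SD, n = 3) with it. The fit gave 1.28 as log2 fold change (standard error 0.45, 95% interval 0.22 to 2.35), with an unadjusted p of 0.0250 and an adjusted p of 0.159 from edgeR's quasi-likelihood test. The value stayed above 0 in each of 15 alternative analyses, from 0.98 to 1.84, with adjusted p between 0.0580 and 0.412. The criterion was not met when 0%-Axitinib replicate 2 (0.98), 0%-Axitinib replicate 3 (1.15), 3%-Axitinib replicate 1 (1.35) or 3%-Axitinib replicate 2 (1.05) was left out. Fgf1 shares its locus with the protein-coding gene Arhgap26, and since strand use in counting is not given in the sources used here, overlapping reads cannot be assigned with certainty.

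Fgf2, the basic FGF that endothelial cells respond to, read 26.6, 11.3 and 7.88 CPM without drug and 21.3, 8.29 and 14.1 CPM with axitinib, listed as replicates 1, 2 and 3. The groups overlapped over nearly their whole range. Its log2 fold change was -0.07 with a 95% interval from -1.33 to 1.20 (adjusted p = 0.951, edgeR), so changes of more than a factor of 2 in either direction lay within the interval. With the muscle genes as a covariate it was -0.88 (unadjusted p = 0.114, edgeR), the lowest value of its 15 alternatives. The locus also holds the antisense gene Nudt6, whose reads cannot be told apart from those of Fgf2 without strand. Fgf7, the keratinocyte growth factor that mesenchymal cells send to epithelium, was at 26.4, 18.9 and 14.6 CPM in the 0%-Axitinib samples and at 24.6, 27.0 and 10.4 CPM in the 3%-Axitinib samples. Its lowest and its highest value both came from the axitinib group. The log2 fold change was 0.05 (95% interval -0.92 to 1.01, adjusted p = 0.952, edgeR) and took the other sign with total counts (-0.0850). Fgf7 overlaps the protein-coding gene Fam227b on the opposite strand, so without strand its reads cannot be assigned with certainty either.

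Fgf18, a ligand of growing cartilage and bone, was at 5.74, 1.87 and 0.923 CPM in 0%-Axitinib replicates 1, 2 and 3 and at 7.26, 4.83 and 5.79 CPM in the 3%-Axitinib samples. The axitinib samples lay close together, and 0%-Axitinib replicate 1 fell within their range while the other 0%-Axitinib samples were lower. The log2 fold change of 1.06 (standard error 0.66, 95% interval -0.50 to 2.62, adjusted p = 0.360, edgeR) did not meet the criterion. Without 0%-Axitinib replicate 1 it was 2.09 and met the criterion (unadjusted p = 0.00707, adjusted p = 0.122, edgeR), and over the 15 alternatives the adjusted p lay between 0.122 and 0.739.

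On a scale that allows genes to be compared, CPM per kb of exon, the order of the ligands in the 0%-Axitinib group was Fgf7 (6.14), Fgf18 (2.40), Fgf2 (2.25) and Fgf1 (1.28). With axitinib the order was Fgf7 (6.36), Fgf18 (5.02), Fgf1 (3.12) and Fgf2 (2.15). These orders are of means only. Without drug the sample levels of Fgf18, Fgf2 and Fgf1 overlapped and so did those of Fgf7 and Fgf18, and with axitinib those of Fgf7 overlapped those of Fgf18 and Fgf1, and those of Fgf1 overlapped those of Fgf2. Of the summed level of the 4 ligands per kb, Fgf7 made up between 42.8% and 60.0% in the 0%-Axitinib samples and between 25.2% and 47.1% in the 3%-Axitinib samples. The share of Fgf1 was 7.02% to 14.1% without drug and 14.3% to 22.8% with it, and that of Fgf18 was 10.4% to 25.5% and 23.1% to 38.5%. These shares are descriptions of levels and were not tested.

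Among the receptors, Fgfr1, the FGF receptor of mesenchymal and endothelial cells, was at 419, 335 and 149 CPM in 0%-Axitinib replicates 1, 2 and 3 and at 488, 425 and 672 CPM in 3%-Axitinib replicates 1, 2 and 3. The groups did not overlap, although 0%-Axitinib replicate 1 and 3%-Axitinib replicate 2 were nearly level. The means were 301 ± 138 CPM (SD, n = 3) without drug and 528 ± 128 CPM (SD, n = 3) with it, and the log2 fold change was 0.81 (standard error 0.41, 95% interval -0.17 to 1.79). Its unadjusted p of 0.0917 (adjusted p = 0.279, edgeR's quasi-likelihood test) did not meet the criterion. Leaving out 0%-Axitinib replicate 1 gave 1.12 with an unadjusted p of 0.0489 in edgeR, and leaving out 0%-Axitinib replicate 3 gave 0.48, within a range of adjusted p over all alternatives from 0.207 to 0.696.

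Per kb of exon Fgfr1 stood far above the other FGF receptors in every sample. Its mean level was 30.5 CPM per kb without drug and 53.5 with axitinib, while Fgfr2 was at 1.17 and 2.55, Fgfr3 at 0.837 and 1.505, and Fgfr4 at 0.0259 and 0.499 CPM per kb. Fgfr1 made up between 81.5% and 96.8% of the summed level of the 4 receptors in the 0%-Axitinib samples, and between 84.4% and 95.9% in the 3%-Axitinib samples. Its share was lowest in 0%-Axitinib replicate 3 and 3%-Axitinib replicate 2, the samples with the most Fgfr2, and the levels of Fgfr2 and Fgfr3 overlapped each other in both groups.

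Fgfr2, which in its epithelial form receives the Fgf7 signal and in its mesenchymal form acts in bone-forming tissue, varied more within the groups than between them. It was at 5.74, 4.20 and 26.2 CPM in the 0%-Axitinib samples and at 9.35, 55.9 and 13.6 CPM in the 3%-Axitinib samples, again as replicates 1, 2 and 3. A single high sample stood out in each group. The log2 fold change was 1.12 (standard error 0.91, 95% interval -1.02 to 3.27, adjusted p = 0.474, edgeR), and it depended on those samples, with -0.05 on omission of 3%-Axitinib replicate 2 and 2.40 on omission of 0%-Axitinib replicate 3 (unadjusted p = 0.0271, edgeR). The adjusted p ranged from 0.104 to 0.980 over the alternatives. In the annotation used here the Fgfr2 gene spans positions 130162451 to 133123350 of chromosome 7 (GRCm38) and overlaps 69 other genes, so its exon length and its counts carry more uncertainty than those of the other receptors.

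Fgfr3, the receptor that restrains cartilage growth, was nearly constant in the 0%-Axitinib group at 5.90, 5.72 and 6.36 CPM and read 6.49, 17.3 and 8.51 CPM with axitinib. All axitinib values were above all values without drug, but the lowest of them exceeded the highest 0%-Axitinib value by less than the spread of either group. The log2 fold change was 0.85 (standard error 0.41, unadjusted p = 0.0775, adjusted p = 0.259, edgeR). Omission of 3%-Axitinib replicate 2 gave 0.33, and omission of 3%-Axitinib replicate 1 gave 1.11, where it met the criterion (unadjusted p = 0.0335), with adjusted p from 0.209 to 0.615 over the alternatives.

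Fgfr4, an FGF receptor of liver and of regenerating muscle, had 2, 2 and 1 reads in 0%-Axitinib replicates 1, 2 and 3 and 32, 5 and 23 reads in the 3%-Axitinib samples. In the group without drug it was therefore below the limit of detection in every sample, and with axitinib it was at 3.52, 0.456 and 1.33 CPM. The pooled ratio of 60 to 5 reads, scaled for depth, was 17.6 with a 95% counting interval from 7.13 to 56.1. This interval covers counting error only and not the spread between samples. Fgfr4 did not pass the filter of the test and so had no part in the counts of called members with all samples and the filter. In the edgeR fit without a filter its log2 fold change was 4.12 (standard error 0.97, unadjusted p = 0.00178, adjusted p = 0.0960), a value that depends on the prior count. The gene lies on chromosome 13 (positions 55152640 to 55168759, GRCm38) and overlaps no other annotated gene.

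Markers of skeletal muscle are set beside Fgfr4. The summed level of the 10 muscle fibre genes was 126, 6.07 and 11.5 CPM in 0%-Axitinib replicates 1, 2 and 3 and 12968, 18.1 and 7260 CPM in 3%-Axitinib replicates 1, 2 and 3, with Acta1 as the most abundant at 3924, 0.0911 and 1852 CPM in the axitinib samples. All 10 were tested and 8 of them were higher by the criterion, but the groups overlapped for all 10 because 3%-Axitinib replicate 2 was as low as the samples without drug. The 4 myogenic progenitor genes Pax7, Myf5, Myod1 and Myog summed to 0, 0 and 0.163 CPM without drug and to 23.6, 0 and 4.57 CPM with it, with Myog as the most abundant (15.9 CPM in 3%-Axitinib replicate 1), and none of the 4 passed the filter on low counts. Fgfr4 was highest where these lists were highest, but it had 5 reads in 3%-Axitinib replicate 2, where the progenitor genes were at 0, and was below the limit of detection in 0%-Axitinib replicate 1, where the muscle fibre sum was 126 CPM. The part of muscle tissue in the Fgfr4 counts was not tested.

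Among the 10 members, those that fell were the ligand and the receptor of the HGF route. Hgf, the ligand, was at 4.91, 7.23 and 2.34 CPM in 0%-Axitinib replicates 1, 2 and 3 and at 1.76, 1.46 and 1.33 CPM in 3%-Axitinib replicates 1, 2 and 3, from 94, 124 and 43 reads and 16, 16 and 23 reads. Every axitinib sample was below every sample without drug, the axitinib samples were close to each other, and 0%-Axitinib replicate 3 was the nearest to them. The mean was 4.82 ± 2.45 CPM (SD, n = 3) without drug and 1.52 ± 0.220 CPM (SD, n = 3) with axitinib, a level 3.18-fold lower in the fit. The log2 fold change was -1.67 (standard error 0.50, 95% interval -2.84 to -0.50), with an unadjusted p of 0.0120 and an adjusted p of 0.128 from edgeR's quasi-likelihood test. It stayed below 0 in all 15 alternatives, from -2.01 to -1.26, with adjusted p from 0.0288 to 0.422. The criterion was not met without 0%-Axitinib replicate 2 (-1.26, unadjusted p = 0.0506, edgeR) or with the muscle genes as a covariate (-1.70, unadjusted p = 0.0556, edgeR).

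Met, the receptor tyrosine kinase for HGF, was at 46.6, 60.6 and 32.0 CPM in the 0%-Axitinib samples and at 22.1, 9.38 and 23.9 CPM in the 3%-Axitinib samples. All 3 axitinib values lay below all values without drug, with 3%-Axitinib replicate 2 the lowest. The mean level was 46.4 ± 14.3 CPM (SD, n = 3) without drug and 18.5 ± 7.92 CPM (SD, n = 3) with it, 2.51-fold lower in the fit. The log2 fold change of -1.33 (standard error 0.40, 95% interval -2.28 to -0.37) had an unadjusted p of 0.0134 and an adjusted p of 0.132 in edgeR's quasi-likelihood test. Met met the criterion in all 15 alternatives, with values from -2.06 to -1.01 and adjusted p from 0.0282 to 0.322. Per kb of exon its level was 6.04 CPM per kb without drug and 2.40 with axitinib, so that Met was second to Fgfr1 among the receptors of the group without drug, while with axitinib it was level with Fgfr2 within the spread of the samples. Hgf lies on chromosome 5 (16553495 to 16620152, GRCm38) and Met on chromosome 6 (17463800 to 17573980), and neither overlaps another protein-coding gene in the annotation.

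In bulk tissue, fewer cells of a type and less RNA per cell cannot be told apart, which holds for every gene here. Endothelial cells are among the cells that carry MET and FGFR1, and their markers moved with the groups. The 10 endothelial markers summed to 874, 595 and 943 CPM in 0%-Axitinib replicates 1, 2 and 3 and to 251, 269 and 367 CPM in 3%-Axitinib replicates 1, 2 and 3. Of these, 9 were lower by the criterion and 8 had groups that did not overlap, with Pecam1 the most abundant at 251, 143 and 245 CPM and then 50.9, 76.2 and 81.8 CPM, and every marker was detected in every sample. Fgfr1 was on the other side, with its highest values in the axitinib samples. The part of the endothelial markers in the decrease of Met and Hgf was not tested.

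Other cell types that make HGF or carry its receptor gave a mixed picture. The 4 mast cell markers summed to 65.4, 79.1 and 138 CPM in the 0%-Axitinib samples and to 5.72, 4.19 and 23.8 CPM in the 3%-Axitinib samples, all 4 were lower by the criterion and Mcpt4 was the most abundant. The 7 adipocyte markers summed to 1767, 2797 and 1257 CPM and to 926, 761 and 1214 CPM, with sums that did not overlap, 2 of 7 genes lower by the criterion, 4 of 7 with lower values that did not overlap, Lpl the most abundant, and Lep at 0 in 3%-Axitinib replicates 2 and 3. Lep, with 26, 44 and 23 reads without drug and 1, 0 and 0 reads with axitinib, passed the filter by the group without drug alone, and the other lower gene was Fabp4. Summed levels of the 5 macrophage markers were 2506, 2864 and 1106 CPM without drug and 1751, 1980 and 2599 CPM with it, with Cd68 the most abundant, and the groups overlapped for all 5. The lowest macrophage sum came from 0%-Axitinib replicate 3, which also had the lowest Hgf and Met of its group. These lists were set beside the HGF genes only as measured levels, and their part in the result was not tested.

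Fibroblasts and mural cells are usual sources of FGF2, FGF7 and HGF. The 9 fibroblast markers summed to 27636, 13666 and 10917 CPM in 0%-Axitinib replicates 1, 2 and 3 and to 24139, 71438 and 26879 CPM in 3%-Axitinib replicates 1, 2 and 3, led by Col1a1, with 2 of 9 higher by the criterion. The high sum of 3%-Axitinib replicate 2 was carried by the collagen genes of the list, while Pi16 was at its lowest of the 6 samples there (218 CPM). For the 6 mural cell markers the sums were 731, 455 and 513 CPM and 421, 635 and 413 CPM, with Pdgfrb the most abundant, and 2 of 6 (Rgs5 and Notch3) were lower. How far these lists bear on the FGF genes was not tested.

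Chondrocyte markers are set beside Fgf18 and Fgfr3, which are genes of cartilage. The 7 markers summed to 320, 203 and 226 CPM in the 0%-Axitinib samples and to 308, 1320 and 524 CPM in the 3%-Axitinib samples, so that the sums overlapped. Comp was the most abundant, 4 of 6 tested markers were higher by the criterion, 3 of 6 had higher values that did not overlap, and Matn3 had no more than 3 reads in any sample. Both counts include Col9a1, which had 0, 8 and 3 reads without drug and 6, 26 and 53 reads with axitinib and so passed the filter by the axitinib group alone. Fgfr3 was highest in 3%-Axitinib replicate 2, the sample with the highest chondrocyte sum, whereas Fgf18 was lowest of the axitinib group there. The keratinocyte list of 7 genes, which bears on Fgf7 and its epithelial receptor, was high in 0%-Axitinib replicate 2 at 805 CPM and between 8.68 and 15.4 CPM in the other 5 samples, with Krt1 the most abundant in that sample and Krt5 at 0 or at 0.110 CPM elsewhere. Fgfr2 was at its lowest, 4.20 CPM, in that keratinocyte-rich sample. The contribution of chondrocytes or keratinocytes to these genes was not tested.

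**Figure D2:**
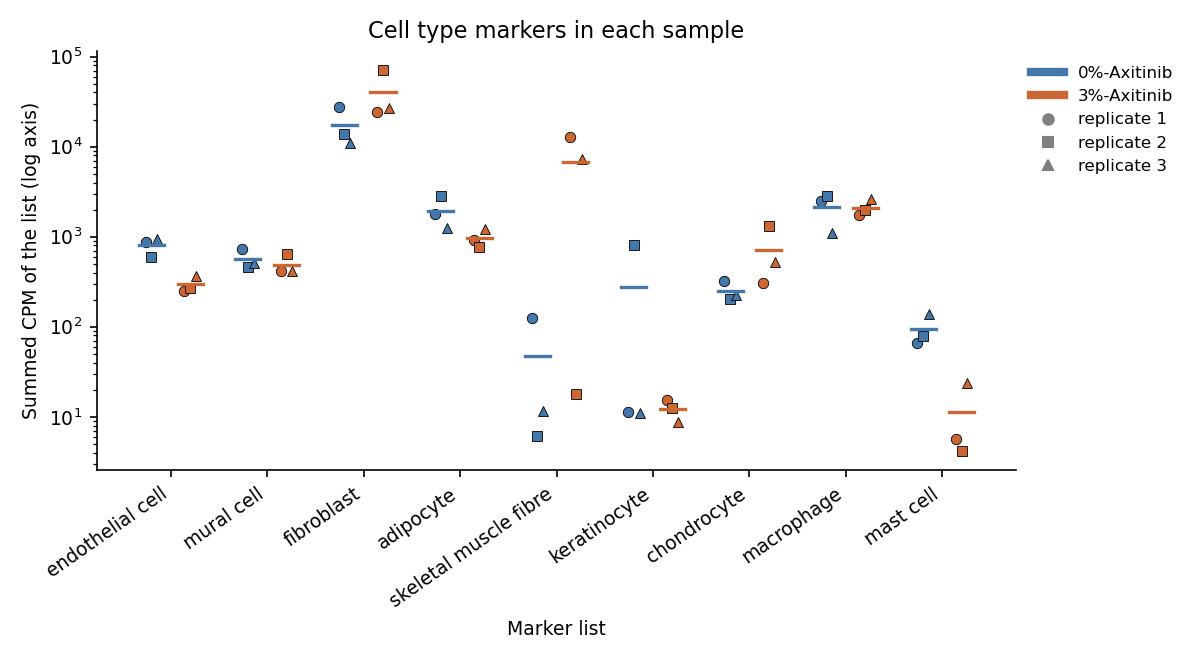
Summed CPM of the genes of 9 cell type marker lists on a log axis, with 1 point per sample and a line at the group mean, blue for 0%-Axitinib and orange for 3%-Axitinib. The endothelial (595 to 943 against 251 to 367), adipocyte (1257 to 2797 against 761 to 1214) and mast cell sums (65.4 to 138 against 4.19 to 23.8) did not overlap and were lower with axitinib. Muscle fibre genes were high in 3%-Axitinib replicates 1 and 3. The myogenic progenitor list is left out because it was 0 in 3 samples. A Schwann cell list is also not shown. Its sums were higher with axitinib and did not overlap (66.7 to 589 against 617 to 711 CPM), and its part in the results was not tested.

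The genes with the pattern most like that of Hgf over the 6 samples, by the root-mean-square difference of centred log2 CPM among 9948 genes with a mean of at least 10 CPM, were Osbpl8 (0.18), an oxysterol-binding protein, and Pde3b (0.18), a cyclic nucleotide phosphodiesterase of adipocytes. Osbpl8 went from 205 to 77.0 CPM on average and Pde3b from 22.8 to 7.32 CPM. Nearest to Met were the sphingolipid enzyme Degs2 (0.16) and the organic anion transporter Slco2b1 (0.20), with Degs2 at 21.9 CPM without drug and 8.53 CPM with it. Nearest to Fgf1 were the membrane protein Itm2a (0.11) and the amino acid transporter Slc1a4 (0.11), with means of 26.0 and 60.6 CPM for Itm2a. A small difference of this kind describes 6 samples and says nothing of shared control.

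Bases before the RefSeq starts of Hgf and Met, the 2 members lower by the criterion, are shown. They were picked after their values were seen, and shared control of the 2 genes was not tested. The bases come from the RefSeq table (GRCm38.p6), which has promoter entries for 8 of the 10 genes. Windows of 250 bases before each RefSeq start were searched on both strands for the core of the hypoxia response element (ACGTG or GCGTG), the core bound by ETS factors (CCGGAA), the GC box (GGGCGG) and the TATA box (TATAAA). Of 32851 such windows in that table, 38.6% held the hypoxia core, 12.4% the TATA box, 32.7% the GC box and 12.0% the ETS core. Hgf has 2 windows, of which the downstream window (chr5:16553651-16553900) held no match to any of the motifs. The upstream Hgf window, chr5:16553245-16553494 on the plus strand, has a GC content of 50.8% and holds 1 match, a hypoxia core on the minus strand, in capitals.
Hgf: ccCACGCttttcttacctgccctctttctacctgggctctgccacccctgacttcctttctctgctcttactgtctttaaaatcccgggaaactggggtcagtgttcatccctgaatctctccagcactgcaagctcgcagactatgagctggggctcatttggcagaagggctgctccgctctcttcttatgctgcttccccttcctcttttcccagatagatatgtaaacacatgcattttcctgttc
The Met window of 250 bases has a GC content of 74.0% and holds 3 hypoxia cores and 3 GC boxes, and a pair of the hypoxia cores overlap each other on opposite strands. Its first 93 bases, chr6:17463707-17463799 on the plus strand, are the part before the GENCODE start of the gene, with the GC box in capitals. The 3 hypoxia cores and the other 2 GC boxes lie after that start.
Met: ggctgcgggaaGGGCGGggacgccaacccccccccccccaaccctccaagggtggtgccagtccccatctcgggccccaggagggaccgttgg
The printed Hgf window held neither a GC box nor a TATA box, and the Met window held no TATA box and no ETS core. A match is a description of letters and not a site in use. The RefSeq and GENCODE starts also differ for other members, and the Fgf2 and Fgfr2 windows lie inside the GENCODE span of their genes. Among the other members with an entry, the Fgfr3 window nearest the start of the gene held 4 hypoxia cores, Fgfr4 held 3, Fgf2 and Fgf7 held 1 each, and Fgf18 and Fgfr2 held 0.

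Beyond the 10 genes, 100 genes of the same pathways were grouped by role into 10 lists, written with earlier results of these data known. In all, 83 of the genes were tested. Of these, 8 were lower and 5 higher by the criterion, and the other 70 did not meet it, beside the 11.7% lower and 9.54% higher of all tested genes given above. The groups did not overlap for 14 lower and 8 higher genes, beside 16.6% and 14.7% of all genes. The median log2 fold change was -0.21, against -0.03 for all tested genes. Both counts moved when samples were left out, the lower genes from 5 (without 0%-Axitinib replicate 2 or without 3%-Axitinib replicate 1) to 16 (without 0%-Axitinib replicate 3), and the higher genes from 3 (without 0%-Axitinib replicate 2 or without 3%-Axitinib replicate 1) to 8 (without 0%-Axitinib replicate 1).

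Of 14 other secreted FGF ligands, 13 had a read and 3 were tested (Fgf9, Fgf10 and Fgf16), with a median log2 fold change of 0.38. Fgf16 rose from 1.67, 1.22 and 0.272 CPM in the 0%-Axitinib samples to 4.95, 1.73 and 4.52 CPM in the 3%-Axitinib samples. The gap between the groups was narrow, since 3%-Axitinib replicate 2 was just above 0%-Axitinib replicate 1. The fit put the log2 fold change at 1.81 (standard error 0.72, unadjusted p = 0.0394, adjusted p = 0.190, edgeR), which was 1.68 and no longer met the criterion with total counts, and 0.84 with the muscle genes as a covariate (unadjusted p = 0.309, edgeR). It did not meet the criterion either on omission of 0%-Axitinib replicate 2 (1.92), of 3%-Axitinib replicate 1 (1.56) or of 3%-Axitinib replicate 3 (1.64), and its adjusted p lay between 0.0920 and 0.655. The highest Fgf16 values came from 3%-Axitinib replicates 1 and 3, the samples rich in muscle genes, and the part of muscle tissue was not tested. Fgf9 was at 2.23 CPM without drug and 2.93 CPM with it, and did not meet the criterion. Among those with few reads, Fgf17 had 15 reads without drug and 3 with it (pooled ratio 0.293, 95% counting interval 0.0544 to 1.04) and Fgf20 had 5 and 4 reads (ratio 1.17, interval 0.233 to 5.45). Fgf21 had 11 and 4 reads (ratio 0.533, interval 0.124 to 1.80), and all 11 came from 0%-Axitinib replicate 3. Fgf23 had 3, 6 and 15 reads without drug and 33, 4 and 8 reads with axitinib, so that most of its axitinib reads came from 3%-Axitinib replicate 1. Fgf15, a hormone of the intestine, had no read in any sample. The 3 tested intracellular FGF homologous factors, which act on sodium channels and are not secreted, did not meet the criterion, and the most abundant, Fgf11, averaged 11.1 CPM without drug and 10.9 CPM with it.

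The 5 tested coreceptors and binding proteins did not meet the criterion either, with a median log2 fold change of -0.06. The most abundant was Flrt2, an adhesion protein that binds FGF receptors, at 98.3, 107 and 24.5 CPM without drug and 58.0, 52.3 and 50.5 CPM with axitinib. Its axitinib samples all lay between the extremes of the other group. Without 0%-Axitinib replicate 3, the low sample, the log2 fold change of Flrt2 was -0.94 and met the criterion, against -0.51 with all samples. Kl, the Klotho coreceptor of the hormone-like FGFs, was below the limit of detection of 3 counts in all 6 samples.

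The heparan sulfate proteoglycans that hold FGFs and HGF at the cell surface gave 2 higher genes of 9 tested, beside 9.54% of all genes. The median log2 fold change was 0.64, and 8 of 9 values were above 0. Sdc4, the syndecan of focal adhesions, rose from 89.2, 104 and 98.4 CPM to 323, 212 and 162 CPM, a log2 fold change of 1.26 (standard error 0.29, unadjusted p = 0.00345, adjusted p = 0.0973, edgeR). Its samples without drug were close to each other and every axitinib sample was well above them. Gpc3, a glypican, rose from 90.7, 51.8 and 59.0 CPM to 159, 120 and 112 CPM (log2 fold change 0.95, standard error 0.28, adjusted p = 0.123, edgeR). With the muscle genes as a covariate Gpc3 was at 0.73 and did not meet the criterion (unadjusted p = 0.0626, edgeR), and its adjusted p lay between 0.0287 and 0.432 over the alternatives. Hspg2, the basement membrane proteoglycan perlecan and the most abundant gene of the list, was at 673, 448 and 215 CPM without drug and at 699, 601 and 781 CPM with it, with groups that overlapped and a log2 fold change of 0.64 (adjusted p = 0.385, edgeR) that was 1.06 and met the criterion without 0%-Axitinib replicate 1. The list then had 4 higher genes. Sdc4 met the criterion in all 15 alternatives, from 0.95 to 1.46, with adjusted p from 0.00281 to 0.365.

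For the 12 enzymes that build, sulfate or trim heparan sulfate, all tested, 1 was lower and the median was 0.03. Ndst1, the sulfotransferase that starts the sulfation of the chain, fell from 72.0, 85.2 and 29.7 CPM to 27.6, 24.8 and 39.4 CPM (log2 fold change -1.02, standard error 0.40, unadjusted p = 0.0385, adjusted p = 0.188, edgeR). The groups overlapped because 0%-Axitinib replicate 3 was at the level of the axitinib samples, and the criterion was not met in 7 of 15 alternatives, including those that left out 0%-Axitinib replicate 1 (-0.91), 0%-Axitinib replicate 2 (-0.74), 3%-Axitinib replicate 1 (-0.96) or 3%-Axitinib replicate 2 (-0.90). Sulf2, the sulfatase with the highest level in the list, averaged 115 and 180 CPM and did not meet the criterion.

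Between the receptor and ERK, 1 of 19 tested genes was lower and 1 higher, and 14 had a log2 fold change below 0, with a median of -0.37. The lower genes numbered 4 without 0%-Axitinib replicate 3 and 0 without 0%-Axitinib replicate 1 or 2. Crkl, an adaptor of receptor kinases, fell from 33.1, 36.3 and 16.3 CPM to 13.4, 8.11 and 19.6 CPM (log2 fold change -1.06, standard error 0.42, unadjusted p = 0.0412, adjusted p = 0.195, edgeR), with overlapping groups. Hras rose from 42.3, 38.0 and 61.6 CPM to 74.0, 65.3 and 73.7 CPM, a log2 fold change of 0.59 (standard error 0.23, unadjusted p = 0.0354, adjusted p = 0.182, edgeR). This was at the edge of the fold threshold, since 10 of 15 alternatives put it outside, DESeq2's size factors (0.58) and total counts (0.46) among them. Crkl in turn did not meet the criterion in 6 of 15 alternatives, 4 of which left out a sample (0%-Axitinib replicates 1 and 2, 3%-Axitinib replicates 1 and 2, with values from -1.04 to -0.79), and Hras did not without 0%-Axitinib replicate 1 (0.51), 0%-Axitinib replicate 2 (0.45), 3%-Axitinib replicate 1 (0.56) or 3%-Axitinib replicate 3 (0.56). The most abundant gene, Mapk3, which encodes ERK1, averaged 373 CPM without drug and 311 CPM with it, and did not meet the criterion.

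The inhibitors that ERK signalling induces against itself, and the ubiquitin ligase Cbl, gave 3 lower genes of 11 tested, beside 11.7% of all genes. Their median log2 fold change was -0.49, and 5 genes had lower values that did not overlap, beside 16.6% of all genes. Cbl, which marks activated receptor kinases such as MET for degradation, fell from 124, 197 and 133 CPM to 61.1, 56.8 and 70.3 CPM, with a log2 fold change of -1.27 (standard error 0.24, unadjusted p = 0.00116, adjusted p = 0.0965, edgeR). Spry4, a Sprouty inhibitor, fell from 9.19, 9.04 and 10.4 CPM to 2.75, 5.28 and 2.61 CPM (log2 fold change -1.43, standard error 0.37, unadjusted p = 0.00646, adjusted p = 0.108, edgeR). In both genes each axitinib sample was well below each sample without drug. Dusp6, the phosphatase of ERK, completed the lower genes and was picked after its values were seen, at 66.3, 62.5 and 87.5 CPM without drug and 36.2, 35.7 and 30.6 CPM with axitinib (log2 fold change -1.08, standard error 0.20, adjusted p = 0.0965, edgeR). The lower genes of this list numbered 6 without 0%-Axitinib replicate 3, where those of all tested genes rose from 1785 to 2148. Cbl, Spry4 and Dusp6 met the criterion in all 15 alternatives, with adjusted p from 0.000328 to 0.340 for Cbl, 0.00641 to 0.398 for Spry4 and 0.000574 to 0.340 for Dusp6.

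Of 7 tested transcriptional targets of the cascade, 1 was higher by the criterion and 0 lower, 3 had a log2 fold change below 0, and the median was 0.30. Fosl1, an AP-1 subunit, rose from 5.74, 5.13 and 7.06 CPM to 26.0, 15.6 and 15.7 CPM, a log2 fold change of 1.67 (standard error 0.31, unadjusted p = 0.001003, adjusted p = 0.0965, edgeR) that met the criterion in all 15 alternatives (1.40 to 1.80, adjusted p from 0.000114 to 0.324). All axitinib samples were more than 2 times above all samples without drug. Egr1, the most abundant of the list, was at 41.5, 33.5 and 29.6 CPM and at 83.8, 19.0 and 25.9 CPM, so that 1 axitinib sample was the highest and the other 2 were the lowest of the 6. The activity of the cascade itself was not measured.

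On the HGF side, 2 of the 7 activators of HGF and inhibitors of those activators were lower, beside 11.7% of all genes. All 7 were tested and their median log2 fold change was -0.66. The lower genes numbered 0 without 3%-Axitinib replicate 1 and 1 without 0%-Axitinib replicate 2 or 3 or 3%-Axitinib replicate 2 or 3. Plau, the urokinase that can cut the HGF precursor, fell from 238, 316 and 232 CPM to 120, 54.9 and 174 CPM (log2 fold change -1.17, standard error 0.42, unadjusted p = 0.0259, adjusted p = 0.161, edgeR). All axitinib samples were below the others, with 3%-Axitinib replicate 2 the lowest, as for Met. The criterion was not met for Plau without 0%-Axitinib replicate 2 (-1.02) or without 3%-Axitinib replicate 1 (-1.19). Spint2, an inhibitor of the HGF activator, was at 18.01, 18.5 and 87.3 CPM without drug and at 12.2, 14.7 and 14.8 CPM with it (log2 fold change -1.57, standard error 0.64, unadjusted p = 0.0429, adjusted p = 0.198, edgeR). Its call rested on the high value of 0%-Axitinib replicate 3, without which the log2 fold change was -0.40. The criterion was also not met without any 1 of the 3%-Axitinib samples (-1.60 to -1.47). The same held with limma-voom (-1.14), the replicate block (-1.14) and the muscle covariate (-1.25).

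Among 7 tested partners of MET and genes of the related MST1 receptor, 1 was lower and the median was -0.25. Itga6, a laminin-binding integrin subunit, fell from 53.3, 42.7 and 53.8 CPM to 26.7, 25.9 and 22.5 CPM, a log2 fold change of -0.996 (standard error 0.18, unadjusted p = 0.00102, adjusted p = 0.0965, edgeR) that met the criterion in all 15 alternatives (-1.13 to -0.93, adjusted p from 0.000516 to 0.324). Both groups were tight and far apart. Itgb4, its beta partner in the laminin receptor, was picked after its values were seen, at 77.3, 29.9 and 9.56 CPM without drug and 116, 97.5 and 122 CPM with axitinib. The groups did not overlap, but the log2 fold change of 1.52 (standard error 0.66, unadjusted p = 0.0535, adjusted p = 0.218, edgeR) did not meet the criterion, and the part of cell types in it was not tested. The list had 1 higher gene without 0%-Axitinib replicate 1 or 3, and also with DESeq2's Wald test, with limma-voom and without a filter. Cd44, a coreceptor of MET and the most abundant gene of the list, was at 451, 540 and 266 CPM without drug and at 271, 272 and 305 CPM with axitinib, and its log2 fold change of -0.57 (adjusted p = 0.298, edgeR) did not meet the criterion, but at -0.81 did so without 0%-Axitinib replicate 3, where the list had 2 lower genes. Its level in 0%-Axitinib replicate 3 was that of the axitinib samples, as was seen for Ndst1 and Crkl.

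**Figure D3:**
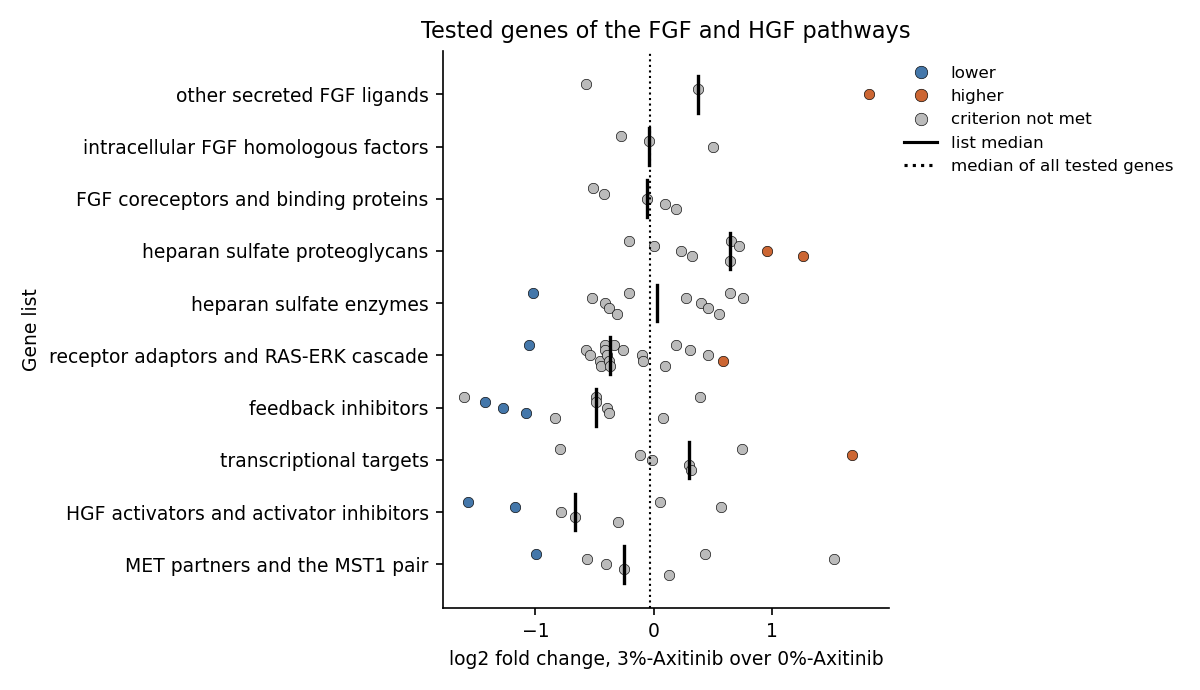
Log2 fold change of 3%-Axitinib over 0%-Axitinib for the tested genes of 10 pathway lists, 1 point per gene (blue lower, orange higher, grey where the criterion was not met), with a black line at each list's median and a dotted line at the median of all tested genes, -0.03. The medians of the feedback inhibitors (-0.49) and of the mixed list of HGF activators and activator inhibitors (-0.66) lie to the left of the dotted line. That of the heparan sulfate proteoglycans (0.64) lies to its right.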

How the data were processed

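RNA of 6 samples was sequenced by the authors, who filtered the reads with fastp and mapped them with STAR to mm10 (the submitters' processing notes name STAR 2.5.2b and GRCm38), and deposited unnormalized read counts per gene. The annotation and the use of strand in counting are not given in the sources used here. Lines of reads given to no gene held between 19.1% and 57.8% of a library and were left out. The fit used edgeR 4.0.16 under R 4.3.3, with filterByExpr (minimum count 10, minimum total 15), TMM, the quasi-likelihood F-test of 3%-Axitinib against 0%-Axitinib and Benjamini-Hochberg adjustment over 15257 genes. The study's limits, a fold of at least 1.5 and a p of at most 0.05, were applied to this test with the unadjusted p; whether the study's p was adjusted is not given in the sources used here. Pooled ratios have exact 95% binomial intervals. Positions and exon lengths came from GENCODE M21 (GRCm38). Replicates were compared and no pair of libraries agreed within sampling noise. Members and lists were chosen with earlier results of these data known. The genes named were all members, the most abundant gene of each pathway list, up to 2 higher and 2 lower genes per list by fold change, the 2 genes nearest in pattern to the 3 members with the smallest p, and markers; genes with few or no reads were named beside their lists. Alternatives covered scaling, filter, test (DESeq2 1.42.0, limma-voom with limma 3.58.1), threshold, a replicate block, a muscle covariate and each sample left out. The fit was tested on simulated counts. Python 3.11.15 and matplotlib 3.10.9 made the figures.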

Additional observations from a re-analysis of the deposited data

How the results depend on the processing

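Of 539 alternative values for 36 genes, 457 kept their direction and their side of the criterion, 62 crossed it in the same direction and 20, for 6 genes, changed sign. None of those 6 met the criterion in the main analysis. With limma-voom the log2 fold changes of Egr1, Fgf11, Fgf2 and Fgf7 were -0.0491, 0.11, 0.0015 and -0.12, with total counts that of Fgf7 was -0.0850, and with the muscle covariate those of Egr1 and Sulf2 were -0.74 and -0.12. Leaving out 1 sample at a time gave ranges of -0.63 to 0.65 for Egr1, -0.41 to 0.33 for Fgf11, -0.45 to 0.60 for Fgf2, -0.20 to 0.36 for Fgf7 and -0.0507 to 2.40 for Fgfr2. The cause was not tested.

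At an adjusted p no larger than 0.05 edgeR passed 1 gene, and the number was 1960 with DESeq2's Wald test, 2 with limma-voom, 15 without a filter, 0 with the muscle covariate and 0 to 1252 with 1 sample left out. By the criterion, 957 genes were higher and 889 lower with the muscle covariate, 879 and 1072 at a fold of at least 2, and 1055 to 2274 higher and 1308 to 2148 lower with 1 sample left out. Members higher were 2 without a filter (Fgfr4 added), 3 with the muscle covariate (Fgfr2 and Fgfr3 added) and 1 to 4 with 1 sample left out. These last include Fgfr4 in 4 of the 6 fits, where it passed the filter by its reads in the axitinib group alone, and without Fgfr4 they were 0 to 3. Members lower were 1 with the muscle covariate and 1 to 2 with 1 sample left out. Pathway genes higher were 3 with total counts, 3 with at least 10 reads in every sample, 2 with the muscle covariate, 3 at a fold of at least 2 and 3 to 8 with 1 sample left out, and pathway genes lower were 5 to 16 with 1 sample left out.

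Deviations of same-numbered samples correlated at 0.18, -0.12 and -0.17, and those of differently numbered samples at -0.22 to 0.21. Such correlations, from 3 samples per group, cannot settle whether the replicate numbers pair the samples. With the replicate block, 2 genes passed the adjusted threshold, pathway genes lower were 5, and 1 gene of the MET partner list was higher. Fgf16 (1.92), Crkl (-1.07), Ndst1 (-0.94), Spint2 (-1.14) and Slco2b1 (-1.21) no longer met the criterion under the block. The log2 fold changes of Fgf11, Fgf2 and Fgf7 were then 0.12, 0.0246 and -0.0239. Total counts moved the median of all genes from -0.03 to -0.16. With 3 samples per group and 9225518 to 18403795 reads, the 95% intervals of members were wide, and a level below 0.330 CPM could not be read in the shallowest sample.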
